A study of Arabidopsis thaliana with 108 samples.

Results

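MSH3 (AT4G25540) lies on chromosome 4 at 13042455-13048262 (TAIR10, minus strand) and is the gene next to FWA, the locus that the study targeted. It is 1 of 27444 annotated protein-coding genes, and it was chosen by its bisulfite PCR methylation values in these same libraries, so those values are given as a description, without a test. The members followed here were the 21 cytosines with at least 20 reads between 13044660 and 13044754, of 124 cytosines that reached 20 reads in any of 10 bisulfite PCR libraries, together with the 27 ChIP-seq peaks on the gene and 1 kb upstream, of 573343 peaks in 46 lists.

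The series compared Arabidopsis thaliana plants in which TRB1, TRB2 or TRB3, proteins that bind telomeric repeats, were fused to the FWA-directed zinc finger ZF108 (TRB1-ZF, TRB2-ZF and TRB3-ZF), with fwa and Col-0 plants. The TRB-ZF transgenes were carried in the fwa epiallele, so TRB-ZF and fwa plants share the unmethylated FWA allele and Col-0 does not. The fusions were made with the TRB genes' own promoters, and a TRB3 fusion with the UBQ10 promoter was also made; which construct a library carried was not used here. The methods describe the TRB-ZF plants as T2 transgenic plants selected for early flowering. Bisulfite PCR was made from leaves labelled 5 to 6 weeks old, with 2 libraries each of TRB1-ZF, TRB2-ZF, TRB3-ZF, fwa and Col-0. H3K4me3 ChIP-seq covered TRB1-ZF (3 libraries), TRB2-ZF (2), TRB3-ZF (2) and fwa (3), labelled as floral tissue of 5 to 6 weeks but described as leaves in the methods, and trb1/2/3 triple T-DNA mutants (2), jmj14-1 T-DNA mutants (1) and Col-0 (2), labelled as seedlings of 2 to 3 weeks. H3K27me3 had 2 libraries in each of these groups except jmj14-1, which had none. FLAG-tagged TRB1, TRB2 and TRB3 (4 libraries each) and JMJ14 (2) came from floral tissue of 5 to 6 weeks. The paper states that each FLAG-TRB transgene was carried in the mutant of its own gene, and its text gives no background for FLAG-JMJ14. Myc-tagged JMJ14 in TRB1-ZF (2), TRB2-ZF (1) and TRB3-ZF (1) plants and without a fusion (1), in Col-0, came from leaves of 3 to 4 weeks. The labels do not say whether replicates came from separate plants, so p-values measure only the spread between these libraries.

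MSH3 encodes a MutS homolog of the DNA mismatch repair system. MutS proteins recognize mispaired or looped-out bases, and MutL proteins act downstream of them. Many expressed plant genes carry gene-body methylation, which is found in the CG context inside the transcribed region and is copied at each replication by the methyltransferase MET1. FWA, a homeodomain transcription factor gene that delays flowering when expressed, is different: in Col-0 its promoter repeats are methylated in CG and also in CHG and CHH contexts (H is A, C or T) through the RNA-directed pathway, and in the fwa epiallele that methylation has been lost heritably. H3K4me3 marks the 5′ ends of active genes, H3K27me3 marks Polycomb-silenced genes, and JMJ14 is an H3K4 demethylase.

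The sequence measured in MSH3 is printed because the finding is one of context. It is the plus strand, which is the template strand of MSH3, of chr4:13044660-13044754, read from the RefSeq TAIR10.1 genome, and the capitals mark the 6 CG cytosines.

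MSH3 window: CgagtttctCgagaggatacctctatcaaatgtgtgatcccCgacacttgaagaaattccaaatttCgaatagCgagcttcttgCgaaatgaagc

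Of these 95 bases, 75 lie in exon 7 of 12 (13044680-13044811, coding) and 20 lie in intron 7. The first 2 CG cytosines are intronic and the other 4 exonic. The window starts 3508 bp inside the gene from the transcription start and 6300 bp from the start of FWA, whose 3′ end overlaps that of MSH3 by 10 bp. The gene holds 145 CG dinucleotides in all, so the window samples a small part of it. The 21 cytosines consist of 6 CG, 1 CHG and 14 CHH sites, and all 21 passed the read minimum in all 10 libraries, with 16739 to 2111312 reads per site. The 95% Wilson intervals were at most 0.701 percentage points to either side. PCR reads carry no molecular identifiers, so these intervals cover counting error only. The methods name only FWA regions as targets of the bisulfite PCR, and no source used here names the MSH3 amplicon.

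CG methylation of MSH3 was present in Col-0 and nearly absent from every plant with the fwa epiallele. The mean over the 6 CG sites was 0.0743% and 0.0655% in TRB1-ZF, 0.0444% and 0.0558% in TRB2-ZF, and 0.0652% and 0.974% in TRB3-ZF. It was 0.0490% and 0.0718% in fwa, against 78.6% and 80.6% in Col-0. All 8 libraries with the fwa epiallele lay below both Col-0 libraries. The fwa plants averaged 0.0604% ± 0.0161 and Col-0 plants 79.6% ± 1.40 (SD, n = 2 each), a difference of -79.6 percentage points, fwa minus Col-0.

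The TRB-ZF lines did not separate from fwa. TRB1-ZF averaged 0.0699% ± 0.00617, TRB2-ZF 0.0501% ± 0.00803 and TRB3-ZF 0.520% ± 0.643 (SD, n = 2 each). The 6 TRB-ZF libraries averaged 0.213% ± 0.373, against 0.0604% ± 0.0161 in the 2 fwa libraries, and the difference of 0.153 percentage points was smaller than the spread within the TRB-ZF lines. It was carried by TRB3-ZF replicate 2. Without that library the difference was 0.000632 percentage points. In MSH3, TRB3-ZF replicate 2 was above the other libraries with the fwa epiallele in every context. The mean share of methylated reads was 1.14% at its CHH sites in MSH3 and 1.05% to 1.12% at its CG sites in the FWA regions.

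**Figure D1:**
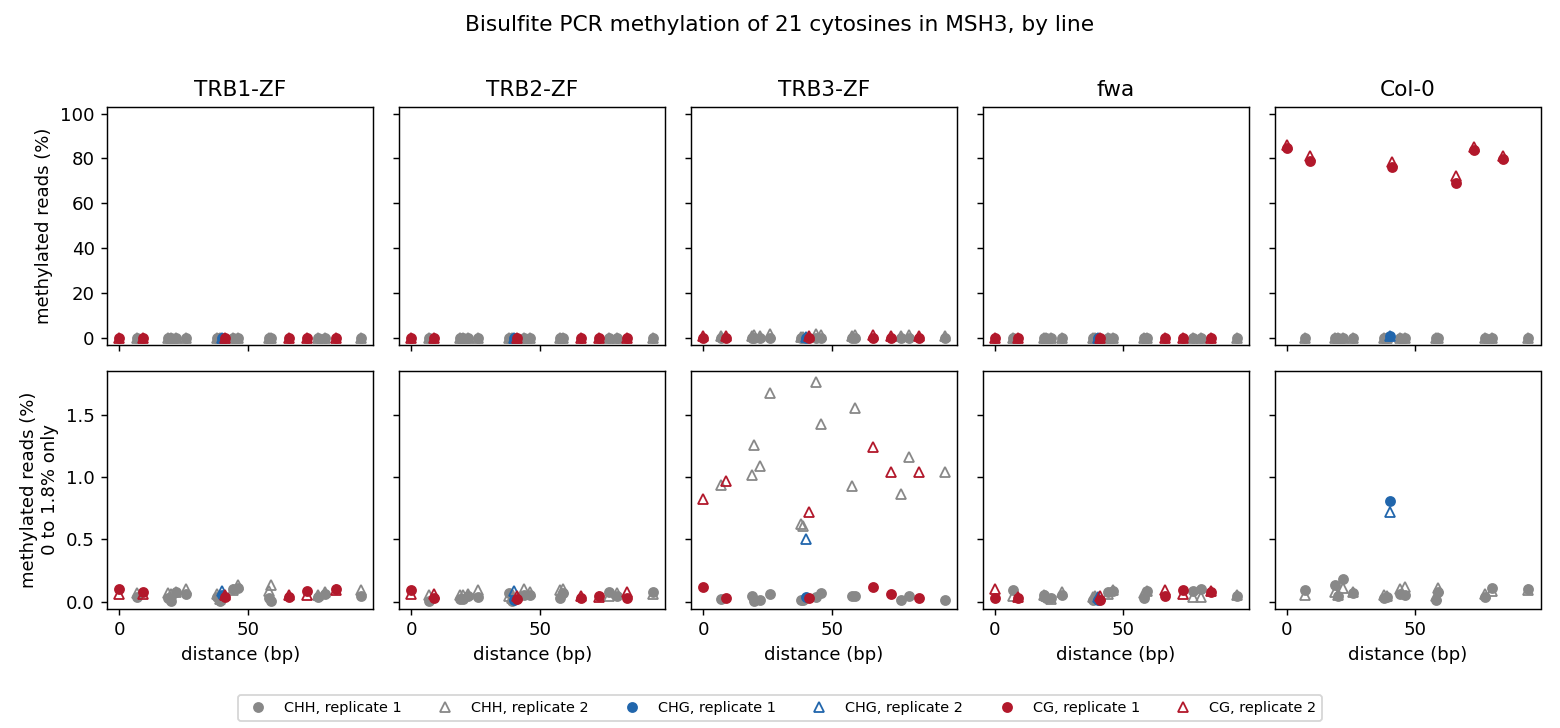
Share of methylated reads at each of the 21 MSH3 cytosines (y axis, %) against distance from the first cytosine (x axis, bp) in TRB1-ZF, TRB2-ZF, TRB3-ZF, fwa and Col-0, with filled circles for replicate 1 and open triangles for replicate 2; the lower row shows only values up to 1.8%. Only the 6 CG sites of Col-0 (red), at 68.9% to 85.9%, stand in the upper part of the axis, and in the lower row the open triangles of TRB3-ZF stand above the other libraries with the fwa epiallele in all contexts.

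In Col-0 the 6 CG sites were not methylated to the same degree. The intronic site at 13044660 had 84.6% and 85.9%, and the exonic site at 13044733 had 83.7% and 84.9%. These 2 sites averaged 85.3% ± 0.941 and 84.3% ± 0.83 (SD, n = 2). Their ranges over the 2 libraries overlapped, but within each library 13044660 was the higher. Next came 13044744, with 79.8% and 81.3%, and 13044669, with 78.9% and 81.1%. These ranges overlapped too, with 13044744 the higher within each library. The site at 13044701 had 76.0% and 78.5%. The lowest was 13044726 in exon 7, with 68.9% and 72.0%, below every other CG site in both libraries. The order of the 6 sites was the same in both Col-0 libraries, and replicate 2 was higher at each site. In the lines with the fwa epiallele the same 6 sites stayed between 0.0163% and 0.120% in every library other than TRB3-ZF replicate 2, where they had 0.721% to 1.24%.

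The 15 non-CG sites of the window were almost unmethylated in Col-0 as well. The mean of the 14 CHH sites was 0.0656% ± 0.0251 in TRB1-ZF, 0.0568% ± 0.0161 in TRB2-ZF, 0.586% ± 0.781 in TRB3-ZF, 0.0579% ± 0.00226 in fwa and 0.0768% ± 0.00237 in Col-0 (SD, n = 2 each). The TRB1-ZF libraries, at 0.0478% and 0.0834%, and the TRB3-ZF libraries, at 0.0339% and 1.14%, each enclosed the Col-0 libraries, at 0.0751% and 0.0785%. The single CHG cytosine, at 13044700, directly precedes the CG site at 13044701. It had 0.0518% and 0.0832% in TRB1-ZF, 0.0115% and 0.0886% in TRB2-ZF, 0.0397% and 0.507% in TRB3-ZF, and 0.0163% and 0.0399% in fwa, against 0.807% and 0.717% in Col-0. Both Col-0 libraries lay above all others at this site, although below 1%.

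FWA showed the same division between lines but another makeup by context. Averaged over 3 promoter regions, CG methylation at FWA was 0.0860% ± 0.00508 in TRB1-ZF, 0.704% ± 0.890 in TRB2-ZF, 0.607% ± 0.692 in TRB3-ZF and 0.164% ± 0.0846 in fwa, against 87.5% ± 1.06 in Col-0 (SD, n = 2 each). Among plants with the fwa epiallele the highest regional value was 3.72%, at FWA region 1 in TRB2-ZF replicate 1, a library whose MSH3 CG sites had 0.0444%. In Col-0, MSH3 was below FWA in both libraries, with 78.6% at MSH3 against 86.8% at FWA in replicate 1 and 80.6% at MSH3 against 88.3% at FWA in replicate 2. The contexts differed more: CHH methylation in Col-0 was 0.0751% and 0.0785% at MSH3, whereas it was 4.24% to 7.34% in the FWA regions. CHG methylation in Col-0 was 0.717% and 0.807% at MSH3, and 8.14% to 23.8% in the 2 FWA regions that hold CHG sites.

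**Figure D2:**
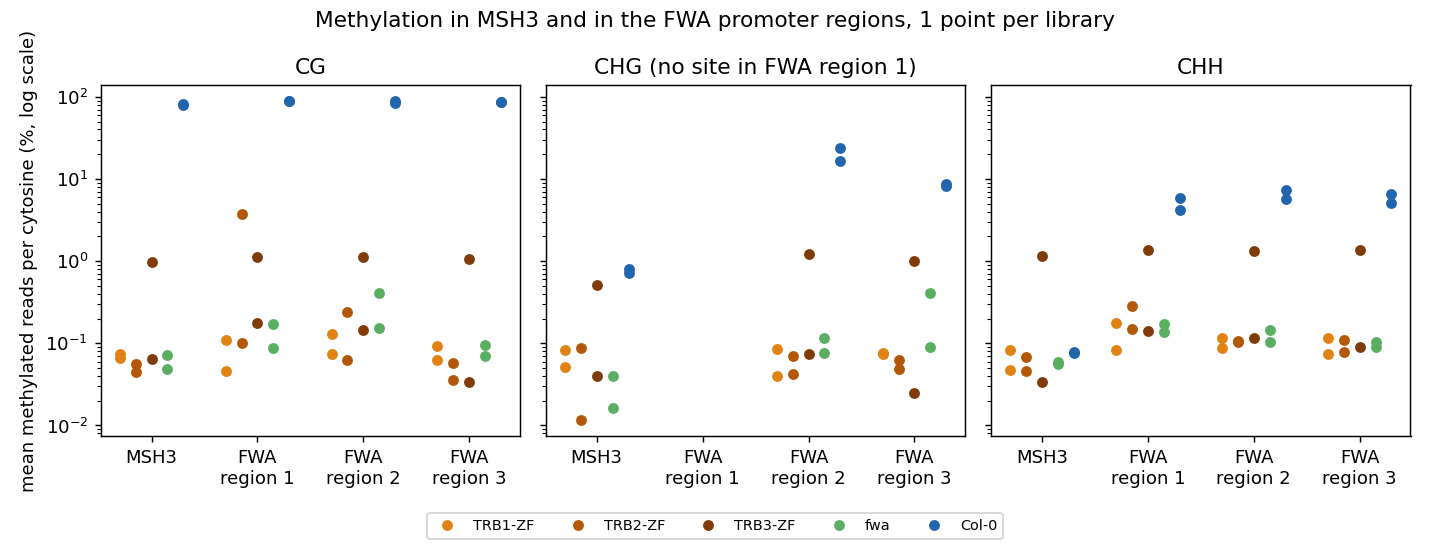
Mean share of methylated reads per cytosine (y axis, %, log scale) in the MSH3 window and in 3 FWA promoter regions (x axis), by context, with 1 point per library and colours for TRB1-ZF, TRB2-ZF, TRB3-ZF, fwa and Col-0. Col-0 is high in CG at both loci, and in CHH it is at 4.24% to 7.34% in FWA but at 0.0751% and 0.0785% in MSH3.

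Cytosines just past the window carried fewer reads and were left out by its limits. The nearest CG site, at 13044758, had, in replicate 1, 0.0421% in TRB1-ZF, 0.0368% in TRB2-ZF and 0.0259% in TRB3-ZF. In replicate 2 it had 0 of 182 reads in TRB1-ZF, which allows up to 1.65%, and 0 of 168 reads in TRB2-ZF, which allows up to 1.79%, and it had under 20 reads in TRB3-ZF. It was methylated at 0.154% and 0.0638% in fwa, against 86.5% and 87.6% in Col-0. A CHG cytosine at 13044767 behaved unlike all others. It read as methylated at 72.4% and 48.1% in TRB1-ZF, 71.9% and 38.7% in TRB2-ZF, 71.6% in TRB3-ZF replicate 1, 54.5% and 65.7% in fwa and 53.8% and 65.2% in Col-0. The replicate 2 values of TRB1-ZF and TRB2-ZF rest on 181 and 168 reads, against 9817 to 38548 for the other values given. The fwa and Col-0 values at this position overlapped.

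The peak lists gave MSH3 1 occupied region, around its transcription start. AT4G25550 is transcribed in the opposite direction from a start only 105 bp away, so both genes share this region and their peaks cannot be told apart. FLAG-TRB1 had a peak there in 4 of 4 lists, with 3.99-, 3.48-, 3.06- and 2.62-fold enrichment. Of all protein-coding genes, 37.4% had FLAG-TRB1 peaks in all 4 lists. FLAG-TRB2 also had a peak in 4 of 4 lists, with 3.11-, 3.04-, 1.51- and 2.61-fold enrichment, which 20.5% of genes shared. FLAG-TRB3 had a peak in 2 of 4 lists, replicates 2 and 4, with 3.39- and 2.56-fold enrichment, and 37.8% of genes had one in 2 or more lists. The 2 FLAG-TRB3 lists without a peak held 3279 and 9099 peaks in all, against 9547 and 20475 in those with one. With a −log10 q of at least 10, a peak remained in 4 lists of FLAG-TRB1, 1 of FLAG-TRB2 and 1 of FLAG-TRB3. The 10 FLAG summits lay within 38 bp downstream and 107 bp upstream of the MSH3 start. No FLAG-JMJ14 or Myc-JMJ14 list had a peak on MSH3 (0 of 7), as for 74.9% of genes.

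The region common to all 10 FLAG-TRB peaks is shown because TRB proteins are known to bind short telomere-like repeats. It is the plus strand of chr4:13048120-13048368, read from TAIR10.1, and covers 106 bases upstream of the MSH3 start and 143 bases of the gene. The capitals mark matches to TGGGCC, a motif searched after the sequence had been seen.

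Shared FLAG-TRB region: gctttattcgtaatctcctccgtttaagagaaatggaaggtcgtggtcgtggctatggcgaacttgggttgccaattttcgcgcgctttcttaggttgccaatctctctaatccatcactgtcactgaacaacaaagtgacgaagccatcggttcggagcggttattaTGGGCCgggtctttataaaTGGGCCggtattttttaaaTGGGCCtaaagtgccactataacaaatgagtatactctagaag

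The telomere-like motif AAACCCTA was searched on both strands, and these letters do not occur in the region; 8.16% of windows at the same place relative to the start of each protein-coding gene held it. TGGGCC, searched on both strands, occurred 3 times, all upstream of the MSH3 start, in the stretch between the starts of the gene pair. Of the same windows, 12.6% held TGGGCC and 0.805% held it 3 or more times.

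H3K4me3 had a peak on MSH3 and its upstream 1 kb in all 15 lists, as it did for 56.3% of genes. Except in TRB1-ZF replicate 1 and trb1/2/3 replicate 2, the peaks spanned the start site and the first part of both genes. The main summits lay 274 to 373 bp upstream of the MSH3 start, on the AT4G25550 side. In TRB1-ZF replicate 1 and trb1/2/3 replicate 2 the region was split into a peak on each side, with the MSH3 start in the gap. The MSH3 side had 3.94-fold enrichment and the AT4G25550 side 11.3-fold in TRB1-ZF replicate 1, and the corresponding values were 5.64 and 6.55 in trb1/2/3 replicate 2. H3K27me3 had no peak on MSH3 in any of 11 distinct lists, and 58.2% of genes likewise had none. A twelfth list, TRB2-ZF replicate 2, was identical to TRB1-ZF replicate 2 and was not counted. With covered lengths of 0 in every list, the H3K27me3 comparisons had nothing to test.

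**Figure D3:**
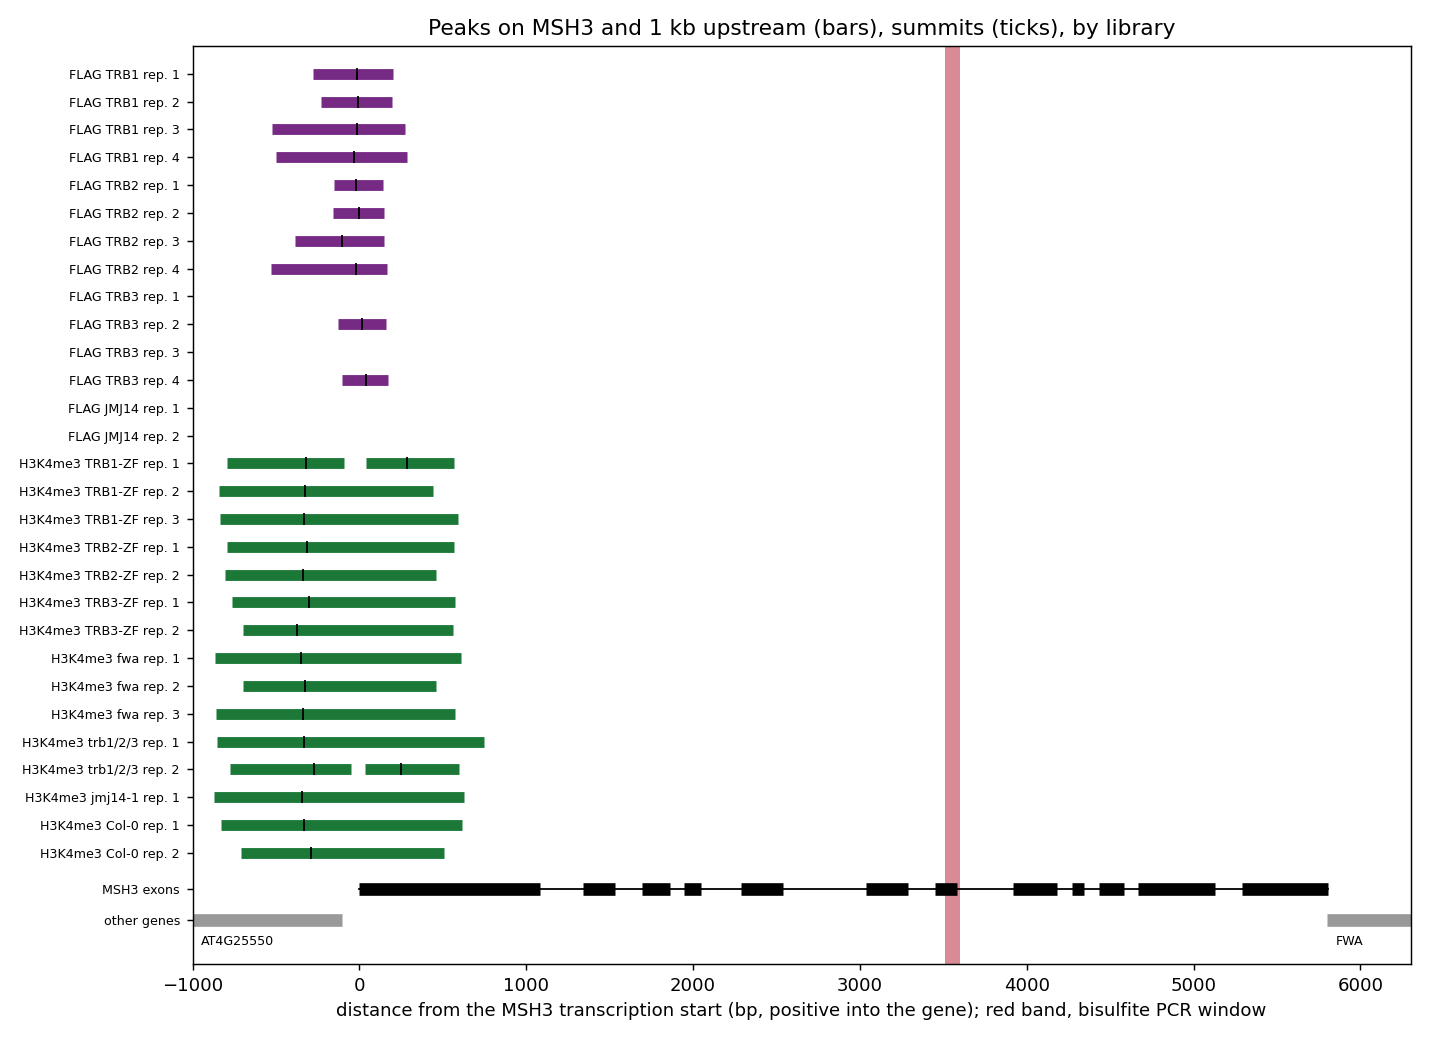
Peaks (bars) and their summits (ticks) in the FLAG and H3K4me3 lists against distance from the MSH3 transcription start (x axis, bp), with 1 row per library, the 12 exons of MSH3 in black, neighbouring genes in grey and the bisulfite PCR window as a red band. Every peak sits around the start, and the nearest is 2763 bp from the window.

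No peak of any of the 46 lists overlapped the bisulfite PCR window. The nearest H3K4me3 peak was 2763 bp away and the nearest FLAG peak 3224 bp away, so the peak lists hold no measurement at the methylated sites themselves.

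H3K4me3 on MSH3 was compared between TRB-ZF lines and fwa, which share the fwa epiallele and the labelled tissue. Peaks covered 1227, 1281 and 1425 bp of the gene and its upstream 1 kb in TRB1-ZF, 1361 and 1268 bp in TRB2-ZF, and 1340 and 1263 bp in TRB3-ZF, against 1474, 1155 and 1434 bp in fwa. The fwa libraries enclosed the TRB-ZF range. The means were 1309 ± 68.8 bp (SD, n = 7) in TRB-ZF lines and 1354 ± 174 bp (SD, n = 3) in fwa, and the difference of -45.0 bp did not pass an exact two-sided permutation test (p = 0.558, smallest possible 0.00833). Without fwa replicate 2, the lowest library, the difference was -145 bp with an exact permutation p of 0.0278. This is the smallest p that the remaining libraries allow. The TRB-ZF replicate 2 libraries were kept in that comparison, although same-numbered libraries were paired. Without fwa replicate 1 the difference was 14.8 bp with an exact permutation p of 0.861. Across all genes, the 2 groups did not overlap, with TRB-ZF higher, in 0.0583% of genes, and with TRB-ZF lower in 0.652%; MSH3 was in neither set. The highest fold enrichment was 11.3, 8.28 and 10.5 in TRB1-ZF, 12.4 and 8.87 in TRB2-ZF, and 12.2 and 8.49 in TRB3-ZF, against 12.2, 6.99 and 10.7 in fwa. Replicate 2 had the lowest enrichment in each of these 4 groups.

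In seedlings, H3K4me3 covered 1600 and 1286 bp in trb1/2/3, against 1444 and 1218 bp in Col-0. Within each same-numbered pair the trb1/2/3 library had the longer coverage. The groups overlapped, with means of 1443 ± 222 bp in trb1/2/3 and 1331 ± 160 bp in Col-0 (SD, n = 2 each), and the difference of 112 bp gave an exact two-sided permutation p of 0.667, where 0.333 is the smallest that 2 against 2 allows. Without Col-0 replicate 2 the difference was -1 bp and without trb1/2/3 replicate 1 it was -45 bp. Of all genes, 10.6% had longer coverage in both trb1/2/3 libraries than in either Col-0 library and 1.53% had shorter coverage. The highest fold enrichment was 8.91 and 6.55 in trb1/2/3, against 5.71 and 5.98 in Col-0, and these did not overlap (exact two-sided permutation p = 0.333, the smallest possible). In this readout 42.6% of all genes were higher in both trb1/2/3 libraries than in either Col-0 library and 1.67% were lower. The 6.55 of trb1/2/3 replicate 2 came from a peak wholly upstream of MSH3, on the AT4G25550 side. In that library the peak inside MSH3 had 5.64-fold enrichment. Each Col-0 library had 1 peak across both sides, with summits 329 and 290 bp upstream of the MSH3 start. Col-0 therefore has no separate value for the MSH3 side to set beside the 5.64. The single jmj14-1 library had 1500 bp and 7.52-fold enrichment, against the same Col-0 libraries, with no replicate check. Coverage in jmj14-1 lay 56 bp above the higher Col-0 library. The share of all genes above both Col-0 libraries in jmj14-1 was not computed, so these values cannot be called unusual for MSH3.

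**Figure D4:**
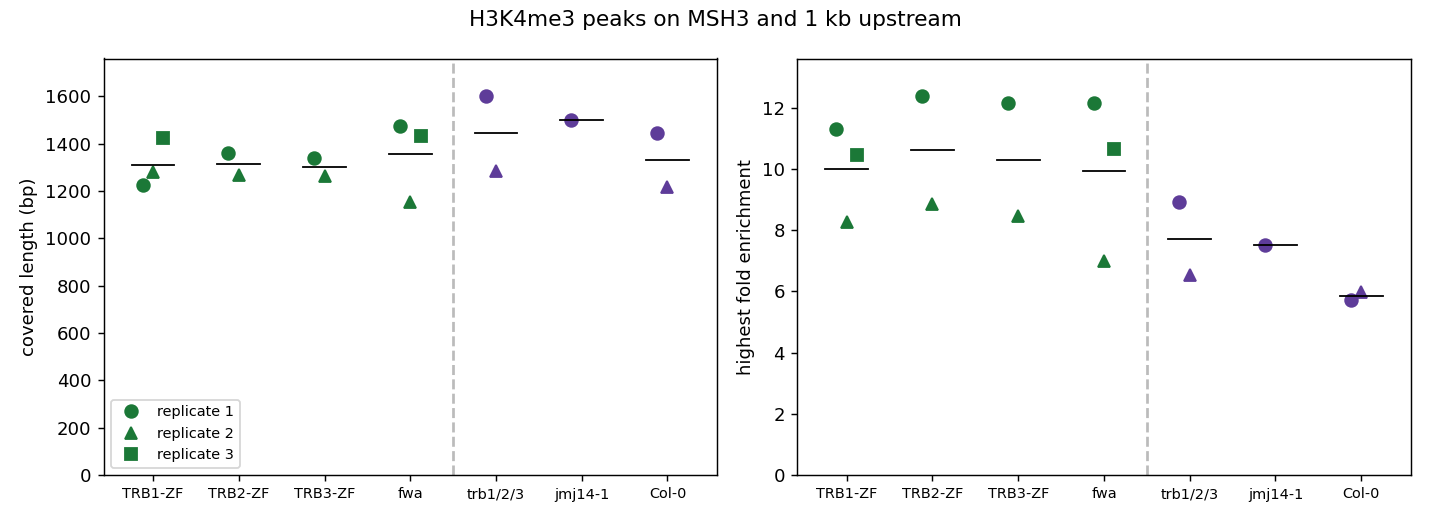
Length covered by H3K4me3 peaks (left, bp) and highest fold enrichment (right) on MSH3 and 1 kb upstream in each library, with symbols for the replicate number and a horizontal line for the group mean. Left of the dashed line are TRB-ZF lines and fwa, where fwa spans 1155 to 1474 bp; right of it are the seedling libraries of trb1/2/3, jmj14-1 and Col-0.

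FWA, the neighbour with which MSH3 shares its 3′ end, had another pattern in these lists. FWA and its upstream 1 kb had an H3K4me3 peak in 7 of 7 TRB-ZF lists and 3 of 3 fwa lists, but in 0 of 5 lists of trb1/2/3, jmj14-1 and Col-0, while MSH3 had one in each of these. The seedling libraries differ from the others in labelled tissue and age as well as in the FWA allele, which cannot be told apart. H3K27me3 was listed on FWA in 1 of 2 TRB3-ZF lists, 2 of 2 trb1/2/3 lists and 2 of 2 Col-0 lists, and on MSH3 in none. For neither mark was the share of all genes with the FWA counts computed, so these counts cannot be called unusual. The other nearest protein-coding genes were SLK1 and SLK3, SEUSS-like transcriptional co-regulators, beyond FWA, and AT4G25550, LAF1, a MYB factor of far-red light signalling, and ACYB-2, a cytochrome b561, on the other side. FLAG-JMJ14 was listed in 2 of 2 lists on LAF1 and ACYB-2, as for 18% of all genes, and on none of the others. The annotated LAF1 and ACYB-2 genes overlap, so their counts are not independent.

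The other mismatch repair genes gave a range of TRB patterns. H3K4me3 peaks were listed on all 7 MutS and MutL homologs examined beside MSH3, in all 15 lists for 5 of them, and H3K27me3 peaks on 0 of 7. Across all genes, 56.3% had H3K4me3 in all 15 lists and 58.2% had no H3K27me3 peak. MSH6, another MutS protein of nuclear mismatch repair, had the same counts as MSH3 in every assay: FLAG-TRB1 in 4 lists, FLAG-TRB2 in 4 and FLAG-TRB3 in 2. AT4G25550, which shares the MSH3 peaks, had these counts too. So did AT4G32430 and RBP47A, which are among the genes of most similar coverage given below. These 3 matches follow from the shared peaks and from the choice by coverage, so they do not show how common the counts are. The share of all genes with the same counts was not computed. MSH7, a plant MutS homolog, had 2, 1 and 0. The meiotic pair had fewer, with 2, 0 and 0 for MSH4 and 1, 0 and 0 for MSH5. Among the MutL homologs, MLH3 had 4, 4 and 3, and PMS1 had 4, 4 and 4. PMS1 alone among the 7 had FLAG-JMJ14 peaks, in 2 of 2 lists, as did 18% of all genes, and MSH4 had a Myc-JMJ14 peak in 1 of 5 lists. MSH1, which acts in organelle genome stability, had 4, 1 and 0. Shares of all genes with the TRB counts of these homologs, or with a Myc-JMJ14 peak, were not computed.

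**Figure D5:**
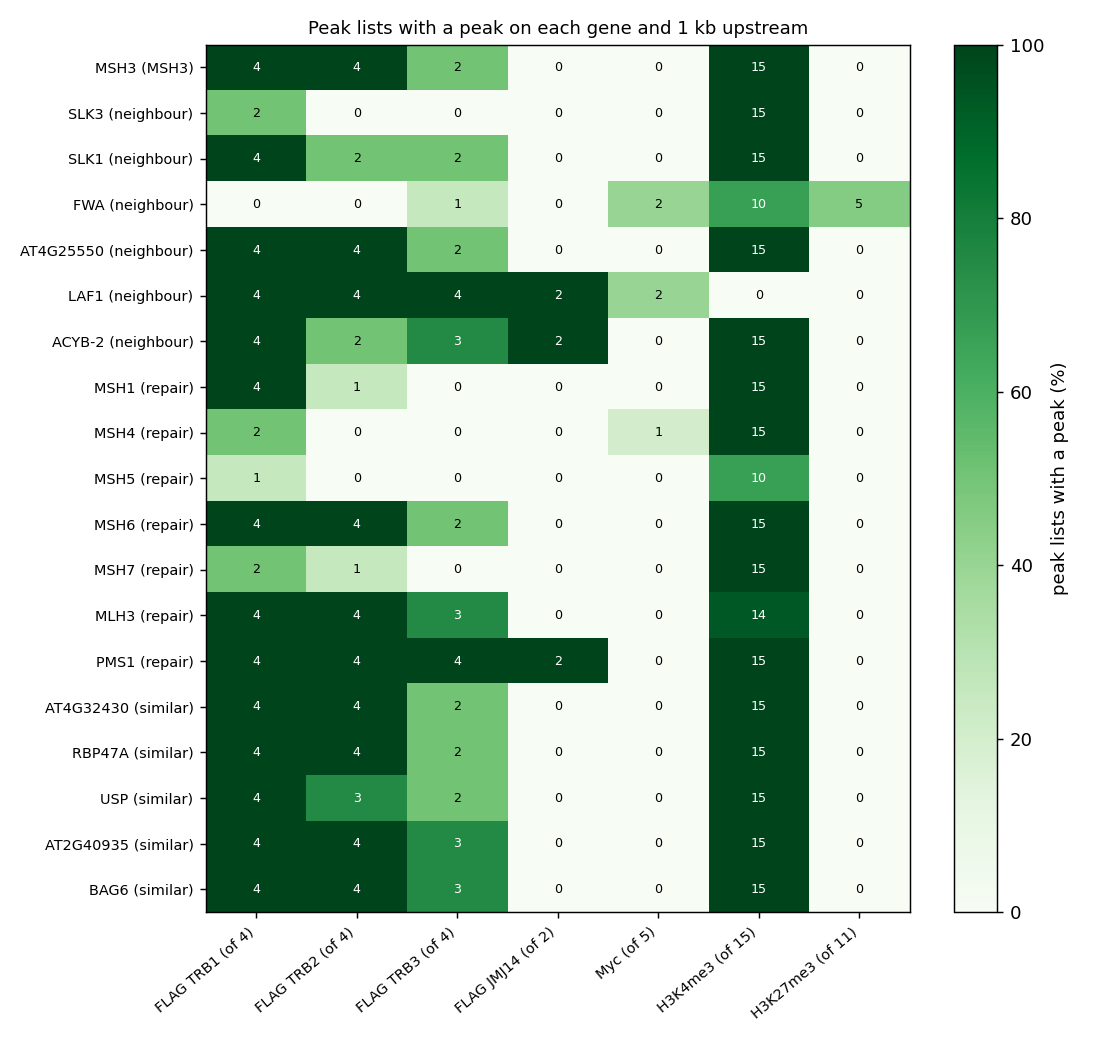
Number of peak lists (printed) and their share (colour, %) with a peak on each gene and 1 kb upstream, for MSH3, its neighbours, the MutS and MutL homologs (repair) and the genes with the most similar coverage (similar). MSH3, MSH6, AT4G25550, AT4G32430 and RBP47A have the same counts in each column, and FWA differs from MSH3 in every column except FLAG-JMJ14.

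The genes whose covered share across 45 distinct peak lists was most like that of MSH3 were AT4G32430 (Pearson r = 0.9915), the RNA-binding protein gene RBP47A (0.9910), the UDP-sugar pyrophosphorylase gene USP (0.9908), AT2G40935 (0.9908) and the BAG-domain co-chaperone gene BAG6 (0.9907). The next gene had 0.9907, so these 5 are not set apart from others. The lists share assays and plants and are not independent points, and the covered share of MSH3 was 16.97% to 23.5% in H3K4me3 lists and at most 11.7% in FLAG lists.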

How the data were processed

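Bisulfite PCR was measured in 10 libraries and ChIP-seq peaks were taken from 46 lists. The authors aligned bisulfite reads with BSMAP (2.90 in their processing notes, another version in the methods) and deposited, per cytosine, counts of methylated and of all reads, their fraction, effective coverage, bounds of that fraction, and paired tables with the context, to TAIR10. ChIP-seq reads were aligned with Bowtie2 (2.1.0 in the notes, another version in the methods), handled with SAMtools 1.9 and called with MACS2 2.1.1. The deposited peak files give fold enrichment (a ratio), −log10 p and q values, a display score and the summit offset as another value; the authors called each library on its own. File names of some Myc lists disagree with their labels, and the labels were used.

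All 1053 cytosine values with at least 20 reads on chromosome 4 matched the context in the TAIR10.1 genome, whose coordinates and RefSeq genes were used. Distinct peak intervals on chromosomes 1 to 5 were intersected with each gene and 1000 bp upstream. Methylation was averaged over cytosines, and covered lengths, with the highest fold enrichment as an alternative, were tested by exact permutation over libraries (Python 3.11.15, numpy 2.4.6, pandas 2.3.3, scipy 1.17.1, matplotlib 3.10.9). The covered-length and permutation code was tested on simulated data. Replicate numbers paired the libraries in the TRB-ZF and fwa ChIP-seq sets: deviations of same-numbered libraries from their group means correlated at 0.679 to 0.888 over 13 pairs for H3K4me3, and at 0.564 to 0.614 over 6 pairs (3 distinct values) for H3K27me3, without TRB2-ZF, whose replicate 2 list repeats another.

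Genes named were MSH3, FWA, the 3 nearest protein-coding genes on each side, 7 MutS and MutL homologs (others of that list are not reported here), and the 5 genes with the most similar coverage. MSH3 and these lists were chosen with earlier results of these data known. Of 108 samples, 56 had files used here; RNA-seq, whole-genome bisulfite, H3, input and control libraries were not analysed here.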

Additional observations from a re-analysis of the deposited data

How the results depend on the processing

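No coverage minimum (10 or 50 reads), pooling of reads or restriction to cytosines shared by all 10 libraries moved a MSH3 methylation value beyond the spread between its replicates. Every site had at least 16739 reads, so the minimums removed none. Of the values at FWA, the TRB1-ZF mean became 0.0995% with reads pooled. Leaving out each library gave differences in MSH3 CG methylation of -80.6 to -78.6 percentage points for fwa minus Col-0 and of 0.000632 to 0.187 for TRB-ZF minus fwa. Leaving out each library in turn gave H3K4me3 differences of -145 to 14.8 bp for TRB-ZF minus fwa (exact permutation p from 0.0278 to 0.944) and of -45 to 269 bp for trb1/2/3 minus Col-0. For TRB-ZF minus fwa, these include a change of sign without fwa replicate 1 (14.8 bp) and a difference past the threshold without fwa replicate 2 (-145 bp). The latter comparison kept the paired TRB-ZF replicate 2 libraries and gave the smallest p its library numbers allow. For trb1/2/3 minus Col-0 the sign changed without Col-0 replicate 2 (-1 bp) and without trb1/2/3 replicate 1 (-45 bp). With the highest fold enrichment as the readout, the TRB-ZF minus fwa difference was 0.34 (exact permutation p = 0.833), opposite in sign to that in covered length, and jmj14-1 minus Col-0 was 1.67. With peaks of −log10 q of at least 10 only, 6 instead of 10 FLAG lists had a peak on MSH3.

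With the replicate number as a block, the TRB-ZF minus fwa difference in H3K4me3 covered length stayed at -45.0 bp. Its exact permutation p was 0.375, so the block did not change that call. The difference of trb1/2/3 minus Col-0 stayed at 112 bp with an exact permutation p of 0.5. That is the smallest p that the 4 arrangements within blocks allow, so this test could not have passed. In trb1/2/3 and Col-0, same-numbered libraries correlated at 0.579 for H3K4me3, within the 0.564 to 0.614 of the TRB-ZF and fwa H3K27me3 libraries. This is 1 distinct value from 2 libraries per group, so pairing of these seedling libraries is neither shown nor excluded. For H3K27me3 the correlation was -0.148, and no list had a peak on MSH3 under either pairing. Signal under the peak threshold was not measured, so a gene without a listed peak is not shown to lack the mark, and only 6 of 145 CG dinucleotides were measured within the MSH3 window.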
